A study of Zea mays with 18 samples.

Results

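The genes described here had opposite differences between high and low plant density in the ear leaf and in a leaf below it. They were read from RNA sequencing of leaves of the maize hybrid Xianyu 335 at grain filling. Every group shared this hybrid and stage, and groups differed only in leaf position and density. HA and LA are the third leaf above the ear at high and low density, HE and LE the ear leaf, and HB and LB the third leaf below the ear, with 3 libraries in each group. In the labels the LA libraries carry a high-density treatment that contradicts their titles. The titles were followed, and every result from LA depends on them. Nothing in the labels ties the 3 libraries of a group to different plants, and p-values then reflect only how these samples spread, which may be technical.

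Values were RPKM, that is reads scaled to gene model length and library size. A gene entered the choice with at least 1 RPKM in at least 3 of 18 libraries, which 21184 of 31855 gene models met. For each gene the ear-leaf difference (HE minus LE) and the lower-leaf difference (HB minus LB) were taken between group means of log2(RPKM + 0.5). Genes with opposite signs were ranked by the smaller of both differences in size, and the first 100 were taken, so the members were chosen by their HE, LE, HB and LB values. Of these, 76 were higher in HE than in LE and lower in HB than in LB, called ear-up genes below. The other 24 were lower in HE than in LE and higher in HB than in LB, called ear-down genes. For this reason every HE, LE, HB and LB value below is a description without a test. All 100 met the filter as part of the rule. The highest of the 6 group means lay under 5 RPKM in 18 of the 100.

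Maize fixes carbon in a pair of cell types. Mesophyll cells make a C4 acid with phosphoenolpyruvate carboxylase, and bundle sheath cells release CO2 from it beside Rubisco, whose small subunit is encoded in the nucleus by rbcS genes. Rubisco activase frees blocked Rubisco sites, and light-harvesting chlorophyll a/b proteins collect light for the photosystems. In a dense stand the lower leaves are shaded and can senesce early, and leaf nitrogen is then moved to the grain. The ear leaf supplies much of the sugar for grain filling. In bulk leaf samples, fewer cells of a type and less RNA per cell cannot be told apart.

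The density differences ran the same way in both leaves more often than not. Of the 21184 genes, 6623 (31.3%) had opposite signs, of which 2104 were higher in HE and lower in HB and 4519 were lower in HE and higher in HB. Although the ear-up direction held fewer of these genes, it gave 76 of the 100 with the highest scores. The sign counts over all genes were taken without rescaling of the libraries and were not repeated with it, so they carry any shift common to all genes. The median lower-leaf difference of all genes was 0.16 on the log2 scale. Rescaling each library by median ratios shifted it by -0.15 to 0.01, and 83 of the 100 were then chosen again, while the choice became 83 ear-up and 17 ear-down genes. All 100 kept both signs under that rescaling, but their differences were at least 0.59 in size, so a shift this small could not turn them.

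**Figure D1:**
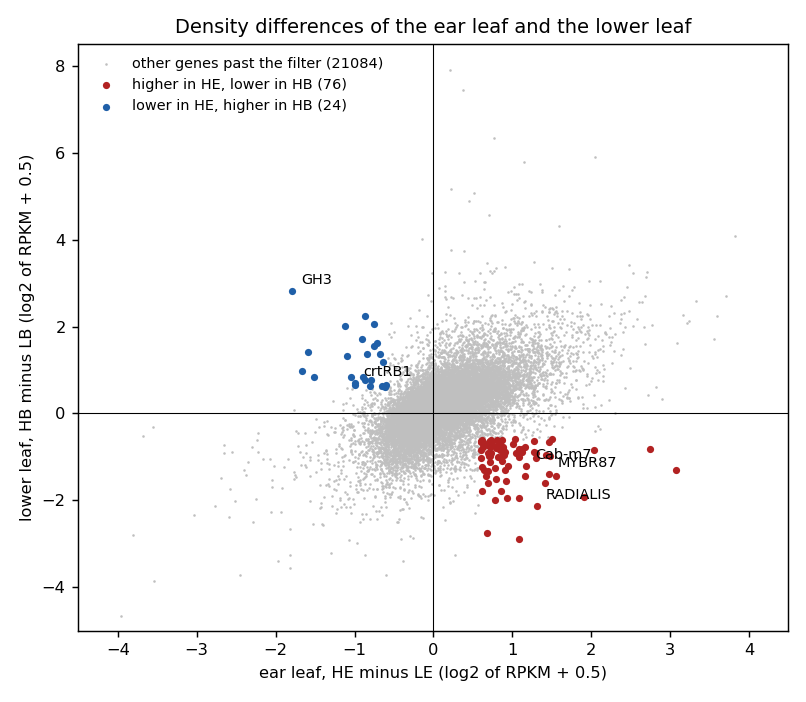
Each point is a gene past the filter, with the ear-leaf difference (HE minus LE, log2 of RPKM + 0.5) on the horizontal axis and the lower-leaf difference (HB minus LB, same scale) on the vertical axis. The 76 ear-up genes (red) lie in the lower right and the 24 ear-down genes (blue) in the upper left, while the cloud of other genes runs along the diagonal.

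Among ear-up genes the ear-leaf difference ranged over 0.60 to 3.08 with a median of 0.88, and the lower-leaf difference over -2.88 to -0.59 with a median of -0.91. Among ear-down genes the ear-leaf difference ranged over -1.79 to -0.60 with a median of -0.87, and the lower-leaf difference over 0.62 to 2.82 with a median of 1.08. The highest scores of opposite differences were below those of shared ones. The score was 1.91 for the first gene and 0.59 for the last. For the 100 highest scores among genes higher at high density in both leaves it ran from 3.83 to 1.63. For the 100 highest scores among genes lower at high density in both it ran from 3.96 to 1.0. The list had no gap at its end. The last genes taken were GRMZM2G036282 (0.60 in the ear leaf, -0.65 in the lower leaf), GRMZM2G380414 (1.5 and -0.60) and GRMZM2G467576 (1.04 and -0.59). The first left out were GRMZM2G075002 (-0.59 and 0.95), GRMZM2G049418 (1.03 and -0.59) and GRMZM2G329047 (0.59 and -0.61).

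Ear-up genes were also more strongly expressed than ear-down genes. Their highest group mean had a median of 32.3 RPKM and reached 100 RPKM in 19 of 76. Ear-down genes had a median highest mean of 9.06 RPKM, and 1 of 24 reached 100 RPKM, against a median of 13.4 RPKM over all genes past the filter. Names could be given to few of them. RefSeq matched 75 of the 100, and 21 had a gene name, 18 of them ear-up and 3 ear-down.

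The genes of Rubisco and its activase stood together among the ear-up genes. All 4 gene models past the filter with these names were members: a pair named rbcS, rca1 and rca3. rbcS (GRMZM2G113033) had 660.0, 530.0 and 664 RPKM in HE libraries, against 429.5, 429 and 284 RPKM in LE libraries. In the lower leaf it had 347, 207 and 239 RPKM in HB, against 618, 392 and 711 RPKM in LB. Neither leaf's libraries overlapped, and the log2 differences were 0.72 in the ear leaf and -1.11 in the lower leaf. The other rbcS model (GRMZM2G098520) had a lower level but the same order, with means of 204 ± 24.7 RPKM in HE and 137 ± 35.8 in LE, and of 122 ± 31.7 in HB and 244 ± 46.8 in LB (SD, n = 3 each).

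rca1 (GRMZM2G162200), a Rubisco activase gene, had 535, 508 and 542 RPKM in HE and 404, 361 and 286 RPKM in LE. Its lower-leaf values were 388, 229 and 242 RPKM in HB and 437, 408 and 455 RPKM in LB. The 3 HE libraries were the highest of all 18 for rca1. rca3 (GRMZM2G162282) averaged 9.61 ± 1.98 RPKM in HE and 5.06 ± 2.0 in LE, and 5.88 ± 1.73 in HB and 11.8 ± 4.61 in LB (SD, n = 3 each). rca1 and rca3 are neighbours in the RefSeq table, and the rbcS models are close relatives. How the authors' counting treated reads that match more than 1 copy is not known here. Upper-leaf values of these 4 genes did not separate by density: their log2 differences between HA and LA lay between -0.46 and 0.11, with limma adjusted p of 0.751 to 0.992.

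Among antenna genes recognised by name, 1 of 6 past the filter was a member. Cab-m7 (GRMZM2G402936), a light-harvesting chlorophyll a/b protein, had 466, 628 and 589 RPKM in HE, against 174, 321 and 266 RPKM in LE. It had 246, 125 and 264 RPKM in HB, against 437, 291 and 795 RPKM in LB. Its libraries did not overlap in either leaf, and its log2 differences were 1.18 and -1.21. Another 4 antenna genes had the same pair of signs with a smaller difference in 1 of the leaves, among them lhcb6 (0.53 in the ear leaf, -2.30 in the lower leaf), cab-m9 (0.25 and -2.01) and lhcb5 (1.14 and -0.35). The exception was cab-m1, at 0.70 and 0.58, which was higher at high density in both leaves.

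Cell type markers differed beside these genes. Of 6 mesophyll markers 5 were found (pep1, ppdk1, mdh6, CP24, which is lhcb6 above, and CP22), and their summed level was 2269 to 3280 RPKM in HB, against 6580 to 12880 RPKM in LB. In the ear leaf the sum was 9551 to 11660 RPKM in HE and 11136 to 13914 RPKM in LE, so there it was not higher at high density. The bundle sheath markers found were ME1 and both rbcS models, which are themselves members. ME1, the NADP-malic enzyme of the bundle sheath and no member, had log2 differences of 0.43 in the ear leaf and -0.69 in the lower leaf. Summed phloem markers were 378 to 475 RPKM in HE and 313 to 363 RPKM in LE, and overlapped between HB and LB. Epidermal markers summed to 19.2 to 30.0 RPKM in all libraries, and no marker found was at 0. The part of these markers in the opposite differences was not tested.

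**Figure D2:**
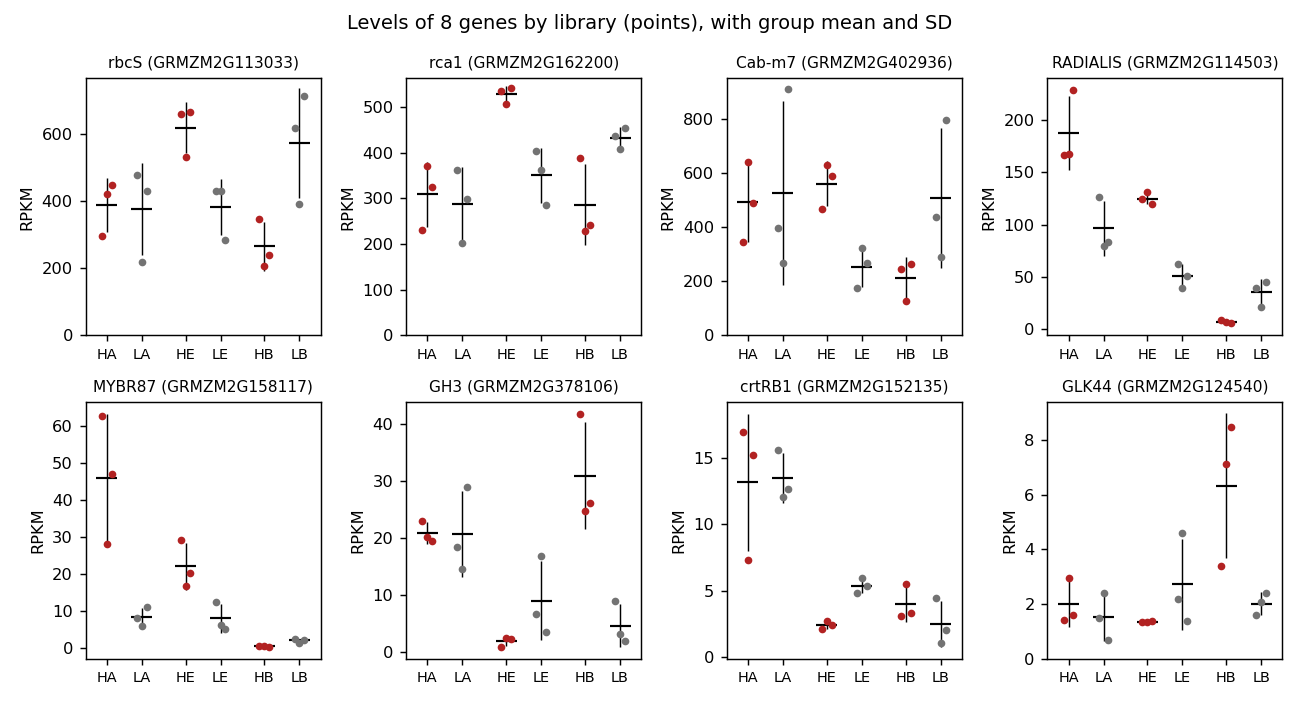
RPKM of 8 member genes in the 18 libraries, by group (high density red, low density grey), with a bar at the group mean and a line of 1 SD (n = 3), on axes that start at or just below 0. In the first 5 panels HE lies above LE and HB below LB, and in the panels of GH3, crtRB1 and GLK44 the order is turned round.

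MYB-related transcription factors, which carry a MYB-type DNA-binding repeat, gave 3 members, all ear-up. RADIALIS (GRMZM2G114503) shares its name with a small MYB protein of snapdragon that sets floral asymmetry. It had 124, 131 and 119.7 RPKM in HE, against 62.4, 39.3 and 51.0 RPKM in LE. In the lower leaf it had 9.22, 6.76 and 6.13 RPKM in HB, against 39.6, 21.2 and 44.9 RPKM in LB. The densities held separate ranges of RADIALIS in all 3 leaves, since HA had 166, 167 and 228 RPKM and LA 127, 79.2 and 83.1 RPKM. Its log2 differences were 1.31 in the ear leaf and -2.13 in the lower leaf.

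MYBR41 (GRMZM2G150260) had 22.0, 22.9 and 22.9 RPKM in HE, against 14.7, 6.71 and 9.47 RPKM in LE. It had 1.95, 0.315 and 0.702 RPKM in HB, against 4.70, 2.29 and 2.74 RPKM in LB. MYBR87 (GRMZM2G158117) averaged 22.1 ± 6.41 RPKM in HE and 8.0 ± 3.92 in LE, and 0.463 ± 0.214 in HB and 2.04 ± 0.537 in LB (SD, n = 3 each). Both factors, like RADIALIS, had their highest group mean in HA and their lowest in HB. The other 15 MYB-related genes past the filter did not share this pattern as a family: over all 18, 4 were higher in HE and lower in HB, 4 the reverse, 8 higher in both and 2 lower in both.

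Other transcription factors were single members of their families. HB34 (GRMZM2G002915), a homeobox gene, had 3.27, 4.96 and 3.82 RPKM in HE, against 2.14, 1.93 and 2.20 RPKM in LE. It had 0.408, 1.23 and 0.876 RPKM in HB, against 1.78, 4.26 and 2.24 RPKM in LB. GLK44 (GRMZM2G124540), of the GARP family of factors that includes the GOLDEN2-LIKE regulators of chloroplasts, was ear-down. It had 1.33, 1.34 and 1.37 RPKM in HE and 2.19, 4.58 and 1.38 RPKM in LE, with 3.38, 7.10 and 8.48 RPKM in HB and 1.58, 2.08 and 2.39 RPKM in LB. The ear-leaf groups of GLK44 were separated by very little, since the third LE library lay just above HE. Of 7 GLK genes past the filter 4 were lower in HE and higher in HB, signs shared by 4519 of all 21184 genes. For GLK17, among these 4, the lower-leaf difference was only 0.0035.

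The member with the second highest score was a hormone gene. GH3 (GRMZM2G378106) belongs to the enzymes that conjugate hormones such as auxin to amino acids. It had 0.887, 2.51 and 2.40 RPKM in HE, against 6.60, 16.8 and 3.60 RPKM in LE. It had 41.7, 24.8 and 26.2 RPKM in HB, against 8.90, 3.10 and 1.92 RPKM in LB. The groups were apart in both leaves, with log2 differences of -1.79 and 2.82, while the upper leaf held 20.9 ± 1.85 RPKM in HA and 20.7 ± 7.50 RPKM in LA (SD, n = 3 each). At low density the ear leaf had the higher mean of GH3 (9.01 ± 6.93 RPKM in LE and 4.64 ± 3.73 in LB), and at high density the lower leaf did (1.93 ± 0.906 in HE and 30.9 ± 9.40 in HB).

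Both other hormone genes were ear-up and low in level. BIF4 (GRMZM5G864847), an Aux/IAA repressor of auxin signalling, had 4.10, 3.39 and 3.36 RPKM in HE and 2.23, 1.87 and 1.24 RPKM in LE. Its lower-leaf groups overlapped, at 2.17, 0.980 and 0.485 RPKM in HB and 1.89, 1.23 and 2.88 RPKM in LB. Dwarf1 (GRMZM2G036340), the gibberellin oxidase that forms active gibberellin, overlapped in both leaves. It had 1.89, 0.982 and 1.28 RPKM in HE and 1.08, 0.613 and 0.465 RPKM in LE. Neither BIF4 nor Dwarf1 differed beyond the spread of its libraries in both leaves.

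crtRB1 (GRMZM2G152135), a beta-carotene hydroxylase gene, was the member from carotenoid synthesis and was ear-down. It had 2.15, 2.76 and 2.44 RPKM in HE, against 4.82, 5.98 and 5.39 RPKM in LE. Its lower-leaf values were 3.08, 5.50 and 3.36 RPKM in HB and overlapped 4.45, 1.05 and 2.02 RPKM in LB. The opposite sign of the lower leaf therefore rested on overlapping libraries. Of 8 carotenoid genes past the filter, 6 were lower at high density in both leaves.

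Single members came from water transport and stress families, and were ear-up. Of 7 plasma membrane aquaporins past the filter 1 was a member, and 3 were lower and 2 higher at high density in both leaves. ZmPIP2-2 (GRMZM2G092125), a water channel of the plasma membrane, had 11.9, 14.1 and 13.0 RPKM in HE, against 8.38, 7.61 and 6.05 RPKM in LE. It had 6.09, 5.42 and 6.94 RPKM in HB, against 11.1, 10.5 and 11.4 RPKM in LB. Its libraries lay close together in each group and apart between densities, with means of 13.0 ± 1.10 RPKM in HE and 7.35 ± 1.19 in LE, and of 6.15 ± 0.762 in HB and 11 ± 0.459 in LB (SD, n = 3 each). asr1 (GRMZM2G136910), of the family induced by abscisic acid, stress and ripening, had 187, 236 and 394 RPKM in HE and 150.3, 152 and 202 RPKM in LE. It had 479, 344 and 184 RPKM in HB and 567, 509 and 423 RPKM in LB, and overlapped in both leaves.

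Other named genes were ear-up as well. hsp22 (GRMZM2G007729), a small heat shock protein and 1 of 8 heat shock genes past the filter, had 1.57, 9.51 and 0.787 RPKM in HE and 0.968, 0.489 and 1.41 RPKM in LE. In the lower leaf it had 1.48, 1.835 and 2.17 RPKM in HB and 4.25, 1.85 and 5.57 RPKM in LB, and it overlapped in both leaves. Only the second HE library was high, and hsp22 left the 100 without it or without the third LB library. rip2 (GRMZM2G119705), a ribosome-inactivating protein, had 37.2, 51.7 and 36.2 RPKM in HE and 47.1, 15.5 and 26.1 RPKM in LE, which overlapped. Its lower-leaf values were apart, at 19.0, 31.8 and 34.9 RPKM in HB and 67.6, 99.8 and 42.3 RPKM in LB. expB8 (GRMZM2G013002), a beta-expansin that loosens cell walls, had 1.14, 1.61 and 3.67 RPKM in HE, just above 1.11, 0.468 and 0.642 RPKM in LE, and overlapped in the lower leaf. sfp6 (GRMZM2G158013) averaged 23.2 ± 2.22 RPKM in HE and 13.2 ± 3.25 in LE, and 10.3 ± 2.19 in HB and 16 ± 1.85 in LB (SD, n = 3 each), without overlap in either leaf. pcr1 (GRMZM2G084958) had log2 differences of 0.73 in the ear leaf and -0.62 in the lower leaf.

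Unnamed gene models headed the list. GRMZM2G015908, with the highest score, had 8.68, 22.6 and 12.5 RPKM in HE, against 4.21, 1.31 and 5.60 RPKM in LE. It had 1.06, 1.33 and 2.81 RPKM in HB, against 7.07, 7.27 and 8.19 RPKM in LB. Neither leaf's libraries overlapped for it. AC207722.2_FG009, the member with the highest single group mean (in HA), was picked out after its values were seen and had 957, 1517 and 1302 RPKM in HE, against 260.4, 514 and 652 RPKM in LE. Its lower-leaf log2 difference was -0.98, with overlapping libraries.

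**Figure D3:**
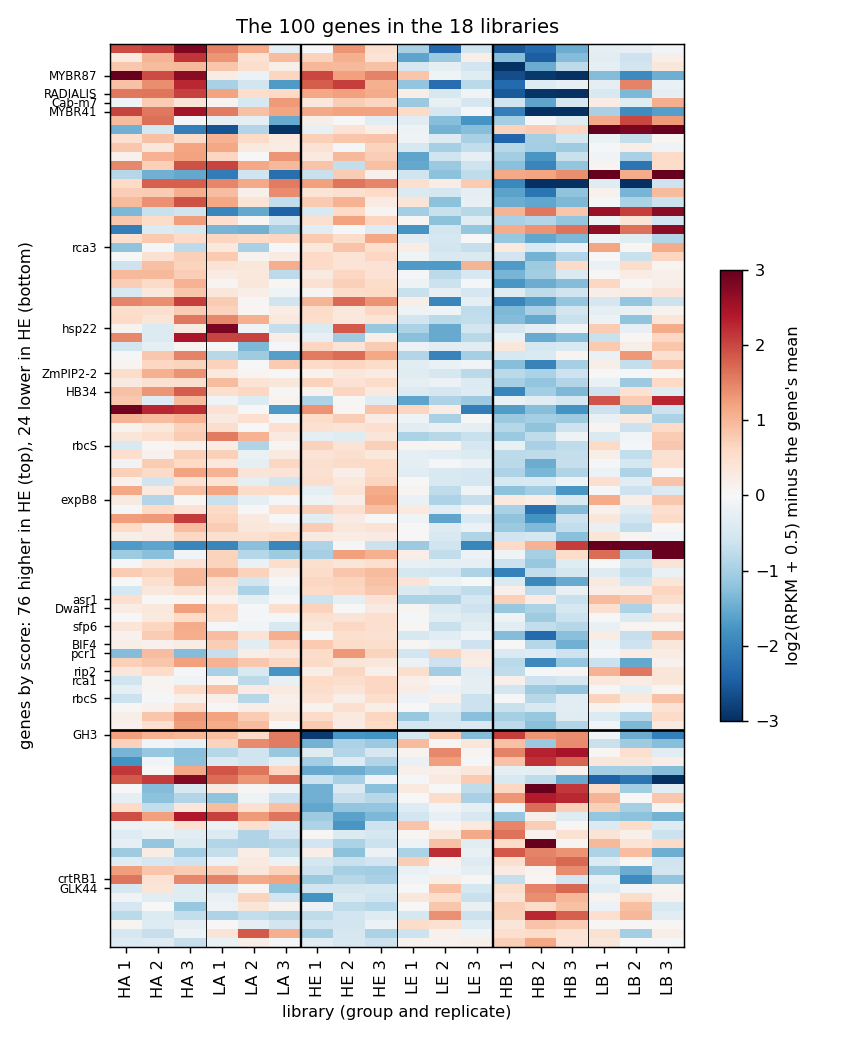
Rows are the 100 genes, by score within the 76 ear-up (top) and 24 ear-down genes (bottom), and columns the 18 libraries. Colour is log2(RPKM + 0.5) minus the gene's mean over libraries, ending at -3 and 3. Ear-up rows are mostly blue in HB and red in HE, and ear-down rows the reverse, with libraries of 1 group differing in depth of colour.

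Groups of libraries separated for many but not all members. In the ear leaf the 3 HE and 3 LE libraries did not overlap in 59 of 76 ear-up genes and 16 of 24 ear-down genes, where 22.5% of all genes were higher and 18.4% lower without overlap. In the lower leaf HB and LB did not overlap in 42 of 76 and 14 of 24, where 13.7% of all genes were lower and 26.3% higher. Both leaves were free of overlap in 33 ear-up and 10 ear-down genes, 43 of the 100 in all. Over all genes 0.826% met this in the ear-up and 1.18% in the ear-down direction, 2.01% together. The rule used both contrasts, so nothing is read from these shares.

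The order of the leaves turned round with density in most members. Among ear-up genes, LB lay above LE in 63 of 76, while HB lay above HE in 7 of 76, and the order of ear and lower leaf was reversed in 56. The median difference was -1.42 for HB minus HE and 0.43 for LB minus LE. Among ear-down genes HB lay above HE in 23 of 24 and LB above LE in 6, with a reversal in 17. The medians there were 1.82 for HB minus HE and -0.35 for LB minus LE. These differences are built from the same 12 libraries as the rule.

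Across all 6 groups, the extremes lay in few places. The lowest mean of an ear-up gene was in HB for 54 of 76, in LE for 12, in LA for 6 and in HA for 4. The highest was in HA for 28, HE for 25, LB for 13 and LA for 10. Ear-down genes had their highest mean in HB in 17 of 24 and their lowest in HE in 14. By library, the median level of the 76 ear-up genes relative to the mean of 18 libraries was 0.49, 0.49 and 0.56 (log2) in HE and -0.24, -0.54 and -0.46 in LE. It was -0.84, -1.03 and -0.67 in HB and 0.01, -0.35 and 0.38 in LB.

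The LB libraries were uneven. The second LB library was the lowest of its group in 55 of 76 ear-up genes and fell inside the LE range, and the third was the highest in 51. The 24 ear-down genes had medians of -0.85, -0.79 and -0.74 in HE and 0.00, 0.30 and -0.25 in LE. They had 0.59, 1.24 and 0.94 in HB and -0.03, 0.01 and -0.36 in LB. Both directions were apart by density in each leaf at the level of the median gene, but the rule chose the genes for this in the same libraries.

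The choice was repeated without each replicate number, and the chosen genes were read in the libraries left out, 1 per group. The filter still used all 18 libraries. In the ear-up direction 53 of 73 genes (72.6%) kept both signs in the libraries numbered 1, 57 of 79 (72.2%) in those numbered 2 and 45 of 61 (73.8%) in those numbered 3. All genes past the filter showed these signs in 11.97%, 18.4% and 11.6%. In the ear-down direction 15 of 27 (55.6%), 11 of 21 (52.4%) and 18 of 39 (46.2%) kept both signs, against 19.95%, 19.5% and 27.3% of all genes. For genes chosen in the ear-up direction, the median left-out ear-leaf difference was 0.57, 0.76 and 0.86. Their median left-out lower-leaf difference was -0.95, -0.49 and -0.96. In the ear-down direction the medians were -0.56, -0.79 and 0.00 in the ear leaf and 0.30, 0.34 and 1.42 in the lower leaf. The third libraries thus showed no ear-leaf difference at the median of the 39 genes chosen in this direction without them. Of these 39 genes, 18 were members. Genes are not replicates, so no p is given.

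**Figure D4:**
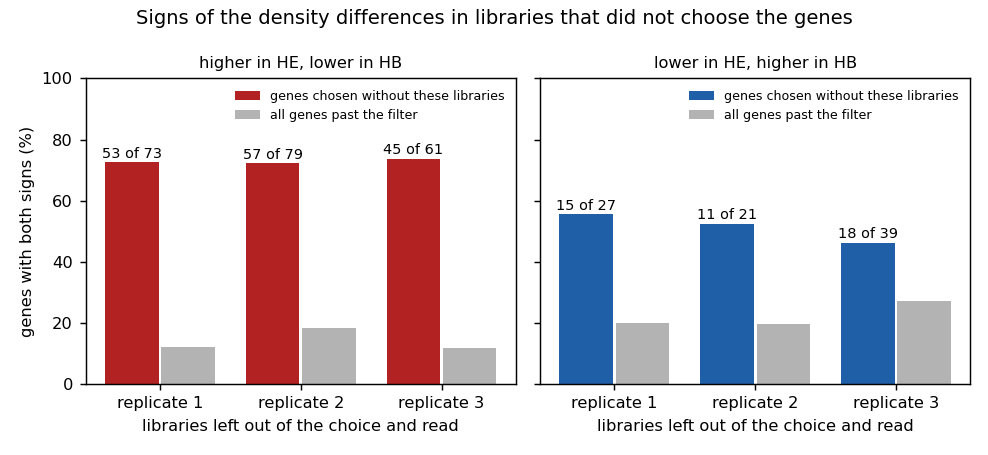
Bars give the percentage of genes that kept both signs in libraries that took no part in choosing them (coloured) and of all genes past the filter with those signs (grey), for each replicate number left out. Genes chosen in the ear-up direction (left) kept both signs in 72.2% to 73.8%, and those in the ear-down direction (right) in 46.2% to 55.6%.

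Membership depended on the libraries for many genes. When each of the 12 ear and lower leaf libraries was left out in turn, 71 to 85 of the 100 were chosen again, and 36 genes were chosen every time. GH3, MYBR87, RADIALIS, MYBR41, Cab-m7, rca3 and HB34 were among these 36. rca1 was chosen in 4 of 12 settings and rbcS (GRMZM2G098520) in 3, since their scores lay near the end of the list. At least 98 of the 100 kept both signs in each setting. The genes were chosen for differences of at least 0.59 in mostly the same libraries, so few signs could turn, and nothing is read from this.

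The upper leaf took no part in the score, so HA was tested against LA with limma over all 21184 genes, with LA taken as low density from its titles. The filter did count HA and LA libraries. GRMZM2G002142, for example, passed it through them, with means of 5.30 RPKM in HA and 4.38 in LA and at most 0.70 elsewhere. The spread in the fit also came from all 18 libraries, among them the 12 behind the score. The test was therefore not fully separate from the rule. A total of 25 genes (0.118%) passed an adjusted p of 0.05, 12 higher (0.0566%) and 13 lower (0.0614%) in HA. A single member, MYBR87, was called, as higher in HA. It had 62.7, 28.0 and 47.1 RPKM in HA, against 8.13, 6.05 and 11 RPKM in LA, with a log2 difference of 2.35 ± 0.33 (SE) and an adjusted p of 0.0117. MYBR87 was thus higher at high density in the ear and upper leaves and lower in the lower leaf. The call was lost without the third HA library (adjusted p = 0.0669), the first LA library (0.0679) or the second LA library (0.0544), and in a limma fit of HA and LA alone (0.0517). The other called MYB-related gene, MYBR47 (GRMZM2G117497), was no member, with 14.2 RPKM in HA and 0.880 RPKM in LA on average. The number of called genes also hung on single libraries: it was 8 and 3 without HA replicates 2 and 3, 2 and 4 without LA replicates 1 and 2, and 16 without LA replicate 3.

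No other member passed the test, and the nearest were mostly ear-up. ZmPIP2-2 had 16.2, 23.5 and 28.7 RPKM in HA, against 13.5, 11.6 and 11.1 RPKM in LA, with a log2 difference of 0.86 ± 0.17 (SE) and a limma adjusted p of 0.0634. AC204212.4_FG001 had 21.7, 13.9 and 13.3 RPKM in HA, against 3.49, 2.42 and 0.393 RPKM in LA (2.91 ± 0.59, limma adjusted p = 0.071). GRMZM2G101664 had 4.78, 8.92 and 14.8 RPKM in HA, against 2.53, 2.10 and 1.23 RPKM in LA (1.93 ± 0.40, limma adjusted p = 0.0781). The HA libraries lay above the LA libraries in each of these genes, as they did for sfp6 (0.91 ± 0.20, limma adjusted p = 0.114). Without the first HA library ZmPIP2-2 and GRMZM2G101664 passed, with limma adjusted p of 0.022 and 0.0492. RADIALIS, at 0.97 ± 0.25, had a limma adjusted p of 0.205.

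Among ear-down genes the lowest limma adjusted p was 0.123, for GRMZM2G138370, which had 3.94, 3.42 and 5.20 RPKM in HA, against 7.76, 22.4 and 13.0 RPKM in LA. Its log2 difference was -1.56 ± 0.36 (SE), and its libraries did not overlap. In the ear leaf it had 2.68, 3.99 and 2.78 RPKM in HE and 3.65, 6.43 and 5.31 RPKM in LE. The next by p were GRMZM5G835235 (-0.49), GRMZM2G127846 (-1.09), GRMZM2G064096 (0.68) and GRMZM2G102318 (-0.65), with limma adjusted p of 0.44 to 0.621. GRMZM2G064096 had the highest group mean of the ear-down genes, with 204, 245 and 385 RPKM in HA and 182, 142 and 181 RPKM in LA.

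As a group, the ear-up genes had a median upper-leaf difference of 0.15, against 0.05 over all genes, and 55 of 76 (72.4%) were higher in HA, against 59.2% of all genes. Their HA libraries lay wholly above LA in 19 of 76 (25%), where 9.12% of all genes did so, and wholly below in 0, where 5.2% did. The limma p before adjustment was under 0.05 in 20 of the 76, all higher in HA, and in 3 of the 24 ear-down genes, all lower. Of all 21184 genes, 1129 were under 0.05 and higher in HA and 735 under 0.05 and lower, 8.8% in either direction. The upper quartile of the ear-up genes was 0.77, and 11 of 76 exceeded 1. The median was 0.29, 0.25 and 0.03 without HA replicates 1, 2 and 3, and 0.31, 0.06 and 0.18 without LA replicates 1, 2 and 3. Most ear-up genes had upper-leaf differences near 0, with a tail of higher values in HA. Across the 76 genes, the upper-leaf difference correlated with the ear-leaf difference at r = 0.54 and with the lower-leaf difference at r = -0.21, as a description over genes that share libraries. Over all genes past the filter these correlations were 0.35 and 0.21. The first LA library was the highest of its group in 50 of 76 genes and the third HA library in 55.

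The ear-down genes had a median upper-leaf difference of -0.17, with 10 of 24 higher and 14 lower in HA. Without HA replicate 2 this median was 0.07, so its sign rested on that library, and it was -0.26 without HA replicate 1 and -0.06 without LA replicate 2. Their libraries were apart in 3 genes in each direction (12.5% each). The 100 genes with the highest scores among those higher at high density in both other leaves had a median of 0.39. The 100 with the highest scores among those lower in both had a median of -0.66, with 92 of 100 lower in HA. The genes higher in both leaves had HA libraries wholly above LA in 20 of 100 and a limma p under 0.05 before adjustment in 12. Those lower in both leaves had HA libraries wholly below LA in 38 of 100. Their limma p before adjustment was under 0.05, with lower values in HA, in 36. These shared-direction sets had larger scores in the ear and lower leaves than the members, and the sets were not tested against each other.

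**Figure D5:**
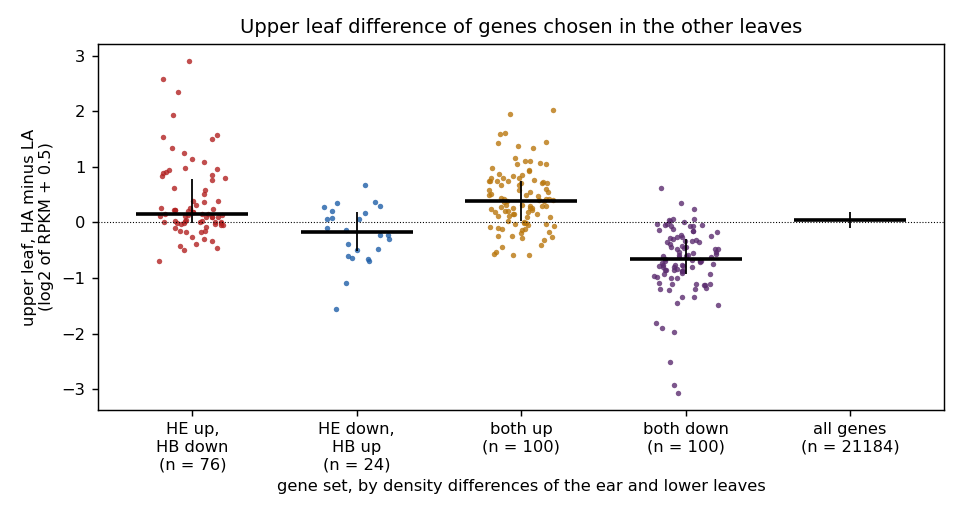
Points are genes, placed by their upper-leaf difference (HA minus LA, log2 of RPKM + 0.5), for ear-up, ear-down, both-up and both-down genes, with a bar at the median and a line between quartiles. For all 21184 genes the bar and line are drawn without points. Medians are 0.15, -0.17, 0.39, -0.66 and 0.05, and the ear-up set has a tail up to 2.91.

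Summed RPKM per library ran from 560984 to 595593, and a relative depth recovered from 149 rare genes from 0.886 to 1.12. These genes were chosen for near-equal values above 0, which can narrow that range. The median of these values was 0.0478 RPKM, and the number of reads behind it is not known. Absolute depth is unknown, so no counting intervals are given. Median-ratio scaling factors ran from 0.915 to 1.14 and were 1.09 to 1.14 in the HB libraries. The 5 mesophyll markers found were above 0 in every library.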

How the data were processed

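Total RNA of leaves was sequenced in 18 libraries. Per the submitters' processing notes, Trimmomatic 0.35, HISAT 0.1.6, HTSeq 0.6.1 and the build B73 RefGen_v3 were used. The authors deposited RPKM values per gene model and library, and their formula, gene lengths and strand setting are not given in the sources used here. Groups were taken from titles. HA was compared with LA by limma (3.58.1, under R 4.3.3) on log2(RPKM + 0.5), using all 6 group means and a variance trend on level. The test was 2-sided, had 12 residual and 4.47 prior degrees of freedom, and was adjusted by Benjamini-Hochberg over 21184 genes. The fit was tested on simulated data. An exact permutation test of 3 against 3 cannot give a p under 0.1. Other contrasts were used by the rule and not tested.

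Names were looked up in RefSeq's Zm-B73-REFERENCE-NAM-5.0 table. It matched 14190 of the genes past the filter, 2030 with a name. Its assembly differs from the authors' build, so no positions are given. The named genes are all members with a gene name, the 5 members per direction with the lowest p in HA against LA, and the 3 genes each side of the end of the list. The rule also asked for gene descriptions, which were not used here. Of 19 lists of name patterns, 2 held a member: heat shock proteins (hsp22) and transcription factors (MYBR41 and MYBR87). The 11 gene families counted in the text were formed from names after these had been seen, so family members without a name are not counted. The members and lists were chosen with earlier results of these data known. Alternatives changed the pseudocount, filter, scaling, libraries and block.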

Additional observations from a re-analysis of the deposited data

Results flagged for a closer look

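In 43 of the 100 genes, all 3 HE libraries lay on one side of all 3 LE libraries, and all 3 HB libraries on the opposite side of all 3 LB libraries. Of these, 33 were higher in HE and lower in HB, and 10 lower in HE and higher in HB. The difference between the leaves was not tested, and the rule chose the genes for it. Over all genes past the filter 2.01% showed such a pattern.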

How the results depend on the processing

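Choosing the genes again with pseudocounts of 0.1 and 1 kept 73 and 89 of the 100, a filter of 5 RPKM kept 78, no filter 94, median-ratio rescaling 83 and quantile normalization 68. Leaving out 1 library gave 66 to 81 ear-up and 19 to 34 ear-down genes. The 25 genes called between HA and LA became 2 with only HA and LA libraries in the fit, 13 with a pseudocount of 0.1, and 2 to 17 without 1 library. The 1 called member became 0 with only HA and LA, 2 with a pseudocount of 1, and 0 to 3 without 1 library. In HA and LA, correlations of deviations between libraries of the same number were -0.08, 0.13 and -0.15. These values cannot decide whether the numbers pair the samples, and pairing in the other leaves was not checked. With the replicate number as a block, 36 genes and 2 members were called, adding AC204212.4_FG001 (limma adjusted p = 0.0374). With a pseudocount of 1, 7 of 16 genes chosen in the ear-down direction without the libraries numbered 2 kept both signs there, against 11 of 21. The median upper-leaf difference ran from 0.03 to 0.31 for ear-up and from -0.26 to 0.07 for ear-down genes without 1 library, so the sign of the ear-down median changed. The causes were not tested. None of the 5 members per direction with the lowest p in HA against LA changed the sign of that difference. MYBR87 was called in 11 of 15 settings, with limma adjusted p of 0.00115 to 0.0679. Depth is unknown, which limits low genes.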
